A study of Mus musculus with 16 samples.

Results

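The genes of fatty acid oxidation and the targets of Ppara were examined as a set of 36 genes, picked by symbol and known function, in mouse liver. Of these, 34 were measured among the 19938 genes that had a probe set carrying a single gene symbol: 16 of 18 mitochondrial genes, 8 of 8 peroxisomal genes, 4 of 4 microsomal genes, and 6 of 6 regulators and other targets. Cpt1b was present only in a probe set shared by several genes and Acsl1 was unnamed in the annotation used, so neither is reported. Where a gene had more than 1 probe set, the one with the highest mean was taken.

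RNA was measured in whole liver of 16 adult mice, with 1 Affymetrix MoGene 1.0 ST array per animal. The 4 groups of 4 were wild-type mice on control diet (WT control), wild-type mice on high-fat diet (WT HFD), mice heterozygous for a null allele of Gli2 on control diet (Het control) and the same heterozygotes on high-fat diet (Het HFD), with diets given for 12 weeks. Gli2 is a transcription factor of the hedgehog pathway, and each heterozygote keeps 1 working copy in every cell. The genotype label of the wild-type samples reads Gli1_WT and that of the heterozygotes Gli2_Het, whereas the series' design text speaks of Gli2 alone. Strain, sex, exact age, litter, diet composition and feeding state at collection were not given in the sources used here. Animals are numbered 1 to 4 within a group in the order of deposit, and the number is only a name.

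Fatty acids enter liver mitochondria as carnitine esters and are shortened there by cycles of dehydrogenation, hydration, a second dehydrogenation and thiolysis. Very long and branched chains are first shortened in peroxisomes, and the microsomal Cyp4a enzymes oxidise the far end of the chain, giving products that peroxisomes then degrade. Ppara is the nuclear receptor, activated by fatty acids and strongly engaged in fasting, that pairs with a retinoid X receptor and drives many genes of all 3 routes.

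The array of Het control animal 2 stood apart from the rest. Its median correlation with the other arrays was 0.971, against 0.993 to 0.996 for the other 15, and its log2 values had an interquartile range of 1.95, against 2.40 to 2.60. In the brighter part of all genes, which holds 31 of the 34 members, the median deviation from the 16-array mean was -0.18 in that animal and within -0.01 to 0.05 in the others. Many of the results that rest on that animal are therefore given with and without it, but not all. The Gli2 probe set read 8.14 in that animal and 7.40 to 7.61 in the other 15, and did not differ between genotypes on control diet (difference 0.13 on the log2 scale, SE 0.10, limma adjusted p = 0.447). Whether that probe set covers the altered stretch of the allele is unknown here, so it does not check the labels. The 9 hepatocyte markers had mean levels of 13.54 to 13.67 in all 16 animals, and in bulk tissue fewer cells of a type and less RNA per cell cannot be told apart.

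In most of the 34 genes the Het control group had the lowest mean and the largest spread, with 2 of its 4 animals low in most members. Its mean was not the lowest for Acadl, Acadvl, Acads, Acaa1a, Acaa1b, Decr2, Acot1 and Fgf21. Het control animal 3 was below the gene's 16-array mean in every one of the 34 genes, whereas 50.1% of all genes in that animal were above theirs. Het control animal 2 was above the mean in 4 of 34, against 59.7% of all genes. Animal 4 was above the mean in 10 of the 34 genes, or 29.4%, against 53.3% of all genes, and animal 1 in 23. Outside the group WT control animal 2 was above it in 7, or 20.6%, against 42.7% of all genes, and the remaining 11 animals in 18 to 29.

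**Figure D1:**
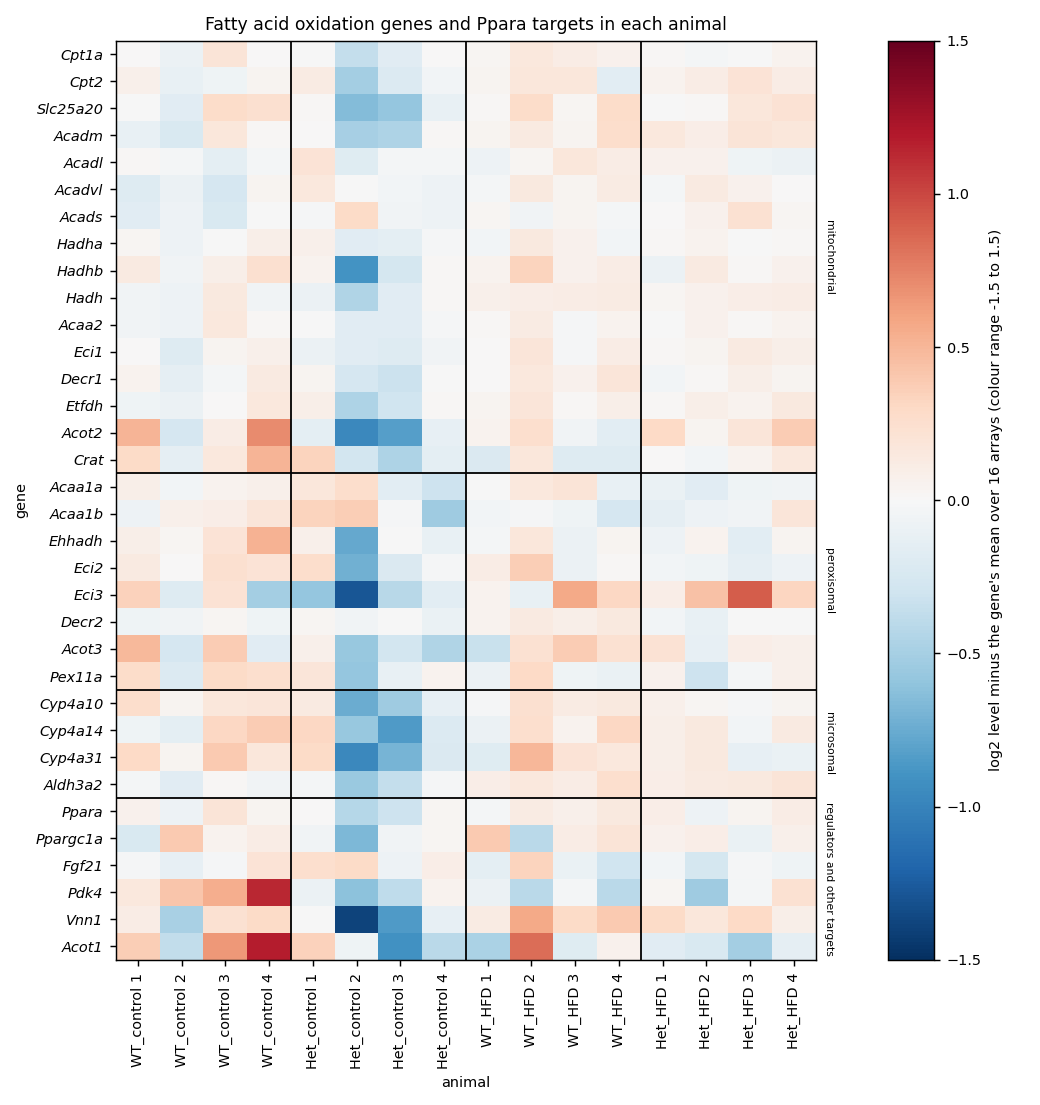
Each row is 1 of the 34 measured genes and each column 1 animal; the colour is the gene's log2 level minus its mean over the 16 arrays, on a range of -1.5 to 1.5, and lines separate the gene classes and the groups. The columns of Het control animals 2 and 3 are blue in most rows; Het control animal 4 is above the mean in 10 of 34 rows, Het control animal 1 in 23 and WT control animal 2 in 7.

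The lowest of the 16 values lay in Het control animal 2 for 22 of the 34 members, which is 64.7%, against 27.2% of all genes. It lay in Het control animal 3 for another 5 members, or 14.7%, against 3.03% of all genes. The 2 animals thus held the lowest value of 27 of the 34 members between them. The sample titles of both carry the number 55, which no other animal has and whose meaning is not stated. Of the 11 title numbers 5 were on more than 1 array. The members above the mean were 7 and 27 in the animals sharing 42, 21 and 29 for 46, 23 and 24 for 30, and 22 and 18 for 39. The array of Het control animal 3 was otherwise ordinary, with a median correlation of 0.994 and an interquartile range of 2.40.

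The low values ran through all 4 gene classes. In the microsomal genes the median deviation was 0.21, -0.66, -0.61 and -0.16 in Het control animals 1 to 4, and no animal of the other groups was below -0.06. In the mitochondrial genes it was 0.03, -0.31, -0.20 and -0.02 in the same order, while WT control animal 2 read -0.09, below Het control animal 4, with 0 of the 16 genes above their mean. In the peroxisomal genes animal 2 read -0.57, and animals 3 and 4 were close together at -0.13 and -0.14. In the regulators and other targets, animals 2 and 3 read -0.52 and -0.34. In animal 3 these values stood beside a median deviation of -0.01 for the brighter part of all genes and 0.03 for the hepatocyte markers.

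**Figure D2:**
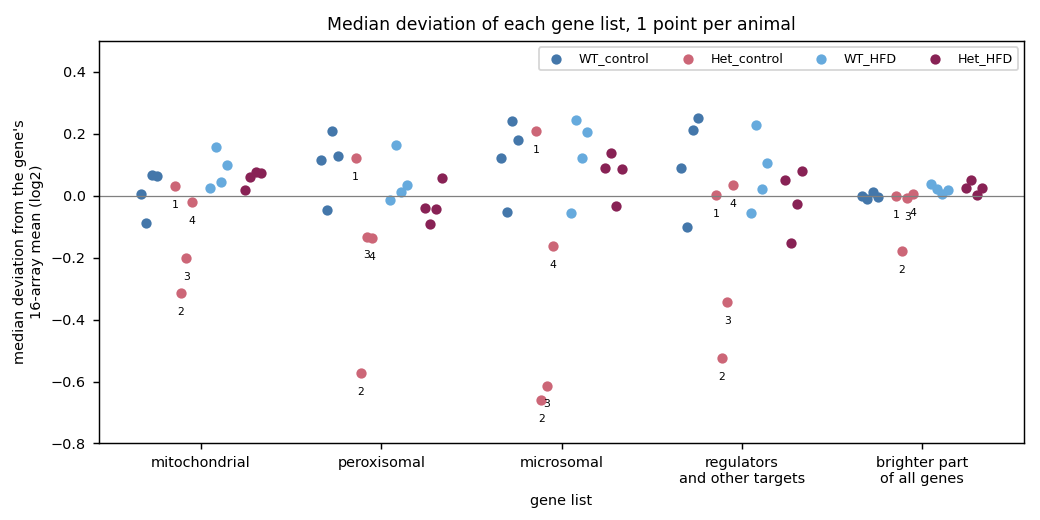
The vertical axis is the median deviation of a gene list from the genes' 16-array means in log2, with 1 point per animal and colours for the 4 groups; the numbers mark the Het control animals. Animals 2 and 3 lie low in the mitochondrial, microsomal and regulator lists (WT control animal 2 is next in the mitochondrial list at -0.09), animal 2 lies apart in the peroxisomal list, and only animal 2 lies low in the brighter part of all genes.

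The spread between animals differed in the same way. The median within-group SD over the members was 0.283 in Het control, 0.121 in WT control, 0.122 in WT HFD and 0.085 in Het HFD. Het control held the largest SD of the 4 groups for 26 of 34 members and for 66.1% of all genes, and Het HFD the smallest for 26 of 34 members and for 45.5% of all genes. Without Het control animal 2, the median SD in that group was 0.195 over the members and 0.077 over all genes.

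The first comparison asked how the high-fat diet changed these transcripts in each genotype. A gene is called where the adjusted p of limma (Benjamini-Hochberg, over all 19938 genes) is under 0.05. In wild-type mice none of the 34 members was called, and percent called over all genes was 0 (0.015 without Het control animal 2, again with no member). At an unadjusted p under 0.05 there were 3 higher and 1 lower member, or 8.82% and 2.94%. The shares were 3.53% and 2.9% over all genes and 5.66% and 2.57% over the brighter part. The median difference of the members was 0.03 on the log2 scale (22 higher and 12 lower in value), beside -0.01 over all genes. That median was -0.005 after the quantile normalization was repeated, so it had no settled sign.

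In the heterozygotes 2 of the 34 members rose, Eci3 and Aldh3a2, and none fell, where 2.22% of all genes were called, 1.5% as higher and 0.712% as lower. The median difference of the members was 0.19 (28 higher and 6 lower in value), beside -0.05 over all genes and 0.07 over their brighter part. Without Het control animal 2 the members' median was 0.12, the brighter part's was 0.02, and no member was called, where 0.873% of all genes were, 0.582% as higher and 0.291% as lower. At an unadjusted p under 0.05 there were 13 higher members, or 38.2%, beside 24.4% of the brighter genes, and 8 members, or 23.5%, beside 15.6% without that animal. The 4 Het HFD values all exceeded the 4 Het control values in 8 members (Acadm, Hadh, Acaa2, Eci1, Acot2, Eci3, Aldh3a2 and Vnn1), while 6.58% of all genes and 11.6% of the brighter part had no overlap in that direction. No member had no overlap in the lower direction, which 7.15% of all genes and 4.11% of the brighter part had.

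**Figure D3:**
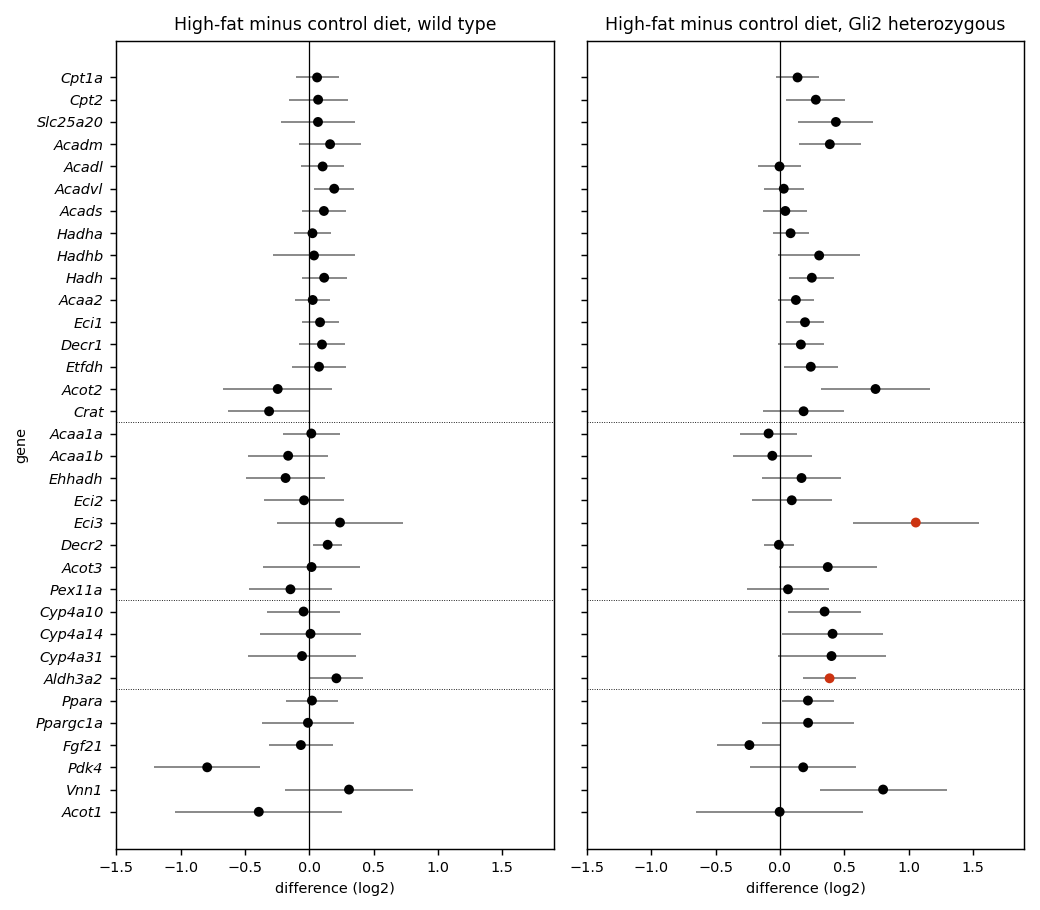
Points are the difference between high-fat and control diet in log2 for each of the 34 genes, in wild-type mice (left) and in Gli2 heterozygotes (right), with lines for the 95% interval, red points for adjusted p under 0.05 and dotted lines between gene classes. The wild-type values lie on both sides of 0, from -0.79 (Pdk4) to 0.31, with 22 of 34 above 0 and none called. In the heterozygotes 28 of 34 lie above 0 with Eci3 and Aldh3a2 called.

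The diet difference itself was not shown to depend on genotype for any member. None of the 34 was called for the interaction, where percent called over all genes was 0. At an unadjusted p under 0.05 there were 4 members, all positive, or 11.8%, beside 4.16% of all genes and 6.29% of the brighter part. Without Het control animal 2 there were 2 positive and 1 negative, or 5.88% and 2.94%, beside 5.49% and 4.41% of the brighter part. The median interaction over the members was 0.20, and 0.08 without Het control animal 2. With both genotypes pooled, 1 member rose on the diet, Aldh3a2, where 1.86% of all genes were called, 1.35% as higher and 0.512% as lower. Without Het control animal 2 there were 2, Aldh3a2 and Eci3, where 3.57% were called, 2.46% as higher and 1.11% as lower.

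The second comparison asked whether loss of 1 Gli2 copy changed the set on either diet. On control diet 29 of the 34 members were lower in value in heterozygotes, with a median difference of -0.21 beside 0.04 over all genes and -0.04 over the brighter part. None was called (percent called 0 over all genes), and at an unadjusted p under 0.05 there were 15 lower members, 44.1% beside 11.8% of the brighter genes. Without Het control animal 2 the members' median was -0.12 and the count 7, or 20.6%, beside 5.35% of the brighter genes. Leaving out Het control animal 3 in its place gave a median of -0.17.

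On high-fat diet the median difference of the members was -0.04 (25 of 34 lower in value), and none was called where 0.00502% of all genes were. At an unadjusted p under 0.05 there was 1 member, lower in heterozygotes, or 2.94%, beside 1.24% of all genes and 1.63% of the brighter part. With both diets pooled none was called either, where 0.00502% of all genes were, and 10 members had an unadjusted p under 0.05, all lower in heterozygotes, which is 29.4% beside 2.99% of all genes and 5.02% of the brighter part. Without Het control animal 2 they were 7, or 20.6%, beside 3.62% of the brighter part. The 2 genotype comparisons and the 2 diet comparisons share groups, so the low Het control values enter both the diet difference in heterozygotes and the genotype difference on control diet.

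The carnitine shuttle and the enzymes of the mitochondrial cycle were the largest class. Among the 16 mitochondrial genes none was called in any comparison, but 15 were higher in value on high-fat diet in heterozygotes (median 0.19, or 0.13 without Het control animal 2 and 0.07 after repeated quantile normalization). In wild-type mice 14 of 16 were higher in value, with a median of 0.07. In the brighter part of all genes 6434 of 9969 were higher in value in heterozygotes (median 0.07) and 5871 in wild type (median 0.02).

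Cpt1a, which makes the carnitine ester at the outer membrane and controls entry into the mitochondrion, read 12.88, 12.78, 13.07 and 12.88 in WT control and 12.91, 13.03, 12.98 and 12.94 in WT HFD. It read 12.87, 12.52, 12.70 and 12.88 in Het control and 12.89, 12.84, 12.87 and 12.93 in Het HFD. Only Het control animals 2 and 3 lay below the range of the other groups, and high-fat diet moved the mean by 0.06 in wild type (SE 0.08, limma adjusted p = 0.947). In heterozygotes the shift was 0.14 (SE 0.08, adjusted p = 0.225), or 0.06 without animal 2. The carrier Slc25a20, which exchanges acylcarnitine for carnitine across the inner membrane, had 10.83 and 10.90 in the same 2 animals against 11.31 to 11.76 in the other 14, with a diet difference in heterozygotes of 0.44 (SE 0.14, adjusted p = 0.0784). Cpt2, which reverses the Cpt1 reaction inside, differed by 0.28 (SE 0.11, adjusted p = 0.114), or 0.16 without Het control animal 2.

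Acadm, the medium-chain acyl-CoA dehydrogenase and a classic Ppara target, was 12.62, 12.51, 12.91 and 12.75 in WT control and 12.78, 12.87, 12.78 and 13.00 in WT HFD. It was 12.74, 12.23, 12.27 and 12.75 in Het control and 12.89, 12.83, 12.92 and 12.90 in Het HFD. All 4 Het HFD animals exceeded all 4 Het control animals, with a difference of 0.39 (SE 0.11, 1.31-fold) that missed the threshold (limma adjusted p = 0.0675, and 0.152 without Het control animal 2). In wild type the ranges overlapped and the difference was 0.16 (SE 0.11, adjusted p = 0.902), or 0.10 without WT control animal 2.

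Acadvl, the very long-chain dehydrogenase bound to the inner membrane, did not share the low Het control values. It read 10.93, 11.04, 10.87 and 11.17 in WT control and 11.10, 11.27, 11.17 and 11.24 in WT HFD. The Het control animals read 11.28, 11.11, 11.09 and 11.05 and the Het HFD animals 11.09, 11.26, 11.18 and 11.12. The groups overlapped throughout, and the largest of its 4 pairwise differences was 0.19 for diet in wild type (SE 0.08, adjusted p = 0.646).

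The long-chain and short-chain dehydrogenases also showed little movement. For Acadl the diet difference in heterozygotes was -0.003 (SE 0.08), and for Acads it was 0.04 (SE 0.08), with Acads highest of all 16 in Het control animal 2 at 11.89; without that animal the differences were -0.06 and 0.13. Hadh, the short-chain hydroxyacyl-CoA dehydrogenase, differed by 0.25 on the diet in heterozygotes (SE 0.08, adjusted p = 0.0868), and Etfdh, which passes electrons from the dehydrogenases to ubiquinone, by 0.24 (SE 0.10, adjusted p = 0.128). Without Het control animal 2 these were 0.15 and 0.14. The thiolase Acaa2, the isomerase Eci1 and the dienoyl reductase Decr1 differed by 0.12, 0.19 and 0.16, none of them called.

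Acot2, the mitochondrial thioesterase that frees long-chain acids from coenzyme A, had the widest swing of the class. It read 11.02, 10.26, 10.63 and 11.22 in WT control and 10.56, 10.76, 10.46 and 10.36 in WT HFD. In Het control it read 10.36, 9.55, 9.68 and 10.39, and in Het HFD 10.81, 10.55, 10.70 and 10.89. All 4 Het HFD values exceeded all 4 Het control values, by 0.74 on average (SE 0.20, 1.67-fold, limma adjusted p = 0.0567), or 0.59 without Het control animal 2. In wild type the difference had the other sign at -0.24 (SE 0.20, adjusted p = 0.922), which was -0.42 without WT control animal 2 and -0.10 without WT control animal 4. The interaction was 0.99 (SE 0.28, adjusted p = 0.387), so the opposite signs did not pass the test. Crat, the carnitine acetyltransferase, likewise had -0.31 in wild type and 0.18 in heterozygotes (interaction 0.50, SE 0.21, adjusted p = 0.578).

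Promoter sequence from RefSeq (GRCm38.p6), from 250 bases before to 50 after the annotated start, was at hand for 27 of the 34 measured genes. Ppara with its partner binds direct repeats of AGGTCA spaced by 1 base, known as DR1. The windows were searched on both strands for AGGTCA, any base, AGGTCA, and more loosely for the same repeat with any base at the fourth place of each copy (AGGNCA). Neither was found in the windows of the 27 genes, and they occur in 0.0481% and 0.451% of the 27025 genes with a window. A single AGGTCA was found in 4 of the 27 (14.8%), beside 18.1% of all genes: Cpt1a, Acadm, Acadvl and Acot3, in the last after the start, where 1 site was met from 2 annotated starts. The absence of a match says only that these letters are not in this window. The single matches upstream of the start in 3 mitochondrial genes are shown because their transcripts behaved differently in the values above, low in Het control animals 2 and 3 for Cpt1a and Acadm and not for Acadvl. They lie at chr19:3323195-3323224 (Cpt1a), chr3:153944875-153944893 (Acadm) and chr11:70015498-70015527 (Acadvl), written along the strand of each gene from 5′ to 3′, with the AGGTCA or its complement TGACCT in capitals.
Cpt1a: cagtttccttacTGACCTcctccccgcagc
Acadm: gTGACCTtcgggctccggt
Acadvl: atggatcaccctAGGTCAggtagaatacag

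Hadha and Hadhb encode the alpha and beta subunits of the mitochondrial trifunctional protein, and their genes start head to head. Hadha read 12.56 to 12.81 in Het control and 12.66 to 12.88 in the other groups; the diet difference in heterozygotes was 0.08 (SE 0.07, adjusted p = 0.36), or 0.05 without Het control animal 2. Hadhb read 11.65, 10.71, 11.34 and 11.63 in Het control, where animal 2 was the lowest of all 16, and its diet difference there was 0.30 (SE 0.15, adjusted p = 0.171), or 0.10 without that animal. A second probe set of Hadhb gave 0.27 (SE 0.15) for the same comparison.

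Animal by animal, the 2 subunits moved together with the brighter probe set of Hadhb, and its other probe set was not compared in this way. Over the 16 animals, after removing each group's mean, Pearson's r was 0.766 and Spearman's rho 0.80 (permutation p = 0.00697 and 0.00091, two-sided, labels permuted within groups; adjusted over 6 pairs, 0.0418 and 0.00546). Leaving out the 2 animals farthest from the median of Hadha gave r = 0.692, and leaving out Het control animal 2 gave r = 0.847. The sequence between the 2 starts, at chr5:30154981-30155252 (272 bases, GRCm38.p6, plus strand, 60.3% G and C), is shown because it is the region that both transcripts leave in opposite directions. Capitals mark its 2 matches to GGGCGG, a motif chosen after the data were seen. That motif was in the windows of 20 of the 27 members (74.1%) and of 38.2% of all genes with a window.
Hadha to Hadhb: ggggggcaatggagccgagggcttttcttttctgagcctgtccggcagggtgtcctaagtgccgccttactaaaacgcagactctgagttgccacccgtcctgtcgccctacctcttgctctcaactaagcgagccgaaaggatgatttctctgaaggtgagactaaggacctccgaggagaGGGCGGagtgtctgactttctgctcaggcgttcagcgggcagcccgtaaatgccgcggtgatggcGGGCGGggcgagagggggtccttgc

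Of the other 5 pairs compared in the same way, none passed after adjustment. Cyp4a10 and Cyp4a14 had r = 0.795 and rho = 0.70 (permutation p adjusted 0.104 and 0.0754). Acot1 and Acot2 had r = 0.589 and rho = 0.438 (adjusted permutation p 0.131 and 0.163), and r was 0.733 without Het control animal 2. For Ehhadh with Cyp4a14 r was 0.515 and rho 0.629 (adjusted permutation p 0.26 and 0.0754). Acadm with Ehhadh gave 0.534 and 0.509 (adjusted permutation p 0.216 and 0.127), and Cpt1a with Pdk4 gave 0.447 and 0.503 (adjusted permutation p again 0.216 and 0.127). Leaving out Het control animal 2 lowered r to 0.253 for Acadm with Ehhadh and to 0.282 for Cpt1a with Pdk4. Leaving out the 2 animals farthest from the median of the first gene gave r of 0.709, 0.434, 0.46, 0.331 and 0.405 for the 5 pairs in the order above. Acot1, Acot2 and Acot3, as well as Cyp4a10 and Cyp4a31, are close relatives in sequence, and the cross-hybridisation of their probes was not tested.

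**Figure D4:**
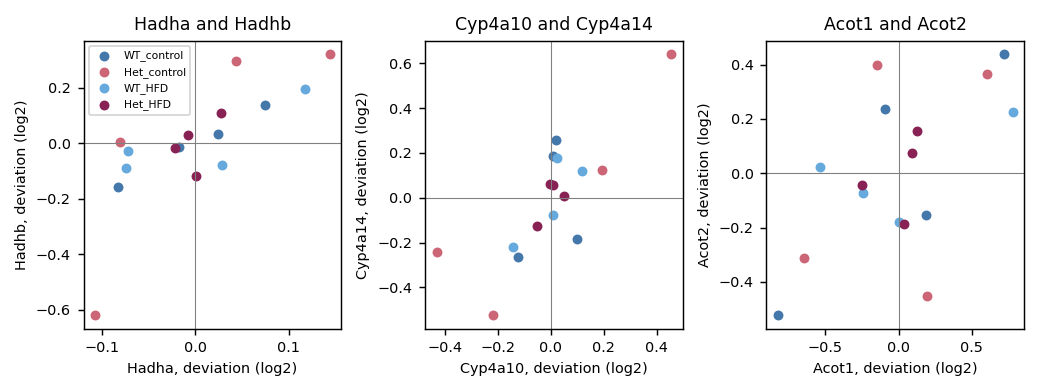
Each point is 1 of the 16 animals, placed by its deviation from its own group's mean in log2 for the gene on each axis, with colours for the 4 groups. Hadha and Hadhb (r = 0.766) and Cyp4a10 and Cyp4a14 (r = 0.795) run along a rising line, and Acot1 and Acot2 (r = 0.589) scatter more widely.

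The peroxisomal class behaved less uniformly. Of its 8 genes 5 were higher in value on high-fat diet in heterozygotes (median 0.08), and the median was -0.005 without Het control animal 2 and -0.05 after repeated quantile normalization, so it had no settled sign. In wild type 4 were higher and 4 lower.

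Eci3, a peroxisomal enoyl-CoA isomerase that shifts double bonds so that unsaturated chains can be degraded, had the largest diet difference of the 34 members in heterozygotes. It read 8.56, 8.02, 8.43 and 7.71 in WT control and 8.26, 8.10, 8.78 and 8.52 in WT HFD. It read 7.63, 6.93, 7.79 and 8.05 in Het control and 8.32, 8.65, 9.12 and 8.54 in Het HFD. Every Het HFD animal exceeded every Het control animal, whereas the wild-type groups overlapped.

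The means were 7.60 ± 0.48 (SD, n = 4) in Het control and 8.66 ± 0.34 (SD, n = 4) in Het HFD, a rise of 1.06 (SE 0.23, 2.08-fold, limma adjusted p = 0.0356). The call depended on single animals: the adjusted p was 0.0621 without Het control animal 2, with a difference of 0.83, and it was also above 0.05 without WT control animal 2, Het control animal 1 or 3, or Het HFD animal 2, 3 or 4 (0.052 to 0.098). In wild type the difference was 0.24 (SE 0.23, adjusted p = 0.935), or 0.08 without WT control animal 4, and the interaction was 0.82 (SE 0.33, adjusted p = 0.558).

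Eci2, the closely related isomerase, was not called in any comparison. It read 11.77, 11.63, 11.87 and 11.83 in WT control, 11.74, 11.99, 11.54 and 11.65 in WT HFD, 11.89, 10.90, 11.41 and 11.61 in Het control, and 11.59, 11.57, 11.49 and 11.54 in Het HFD. The groups overlapped, Het control animal 2 was the lowest, and the diet difference in heterozygotes was 0.09 (SE 0.15, adjusted p = 0.652), or -0.09 without that animal. Whether the 2 genes' probes tell the transcripts apart was not tested.

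Decr2, the peroxisomal dienoyl-CoA reductase, had wild-type groups that did not overlap and heterozygote groups that did. It read 12.82, 12.84, 12.92 and 12.83 in WT control and 12.94, 13.03, 12.98 and 13.03 in WT HFD, without overlap. The Het control animals read 12.92, 12.84, 12.89 and 12.79, and the Het HFD animals 12.85, 12.78, 12.89 and 12.89. In wild type the diet gave 0.14 (SE 0.05, limma adjusted p = 0.634), in heterozygotes -0.008 (SE 0.05, adjusted p = 0.921), and the interaction of -0.15 (SE 0.08, adjusted p = 0.616) was not called.

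The 2 wild-type members without overlap in the higher direction were Decr2 and Aldh3a2, beside 3.51% of all genes and 5.87% of the brighter part. The 1 in the lower direction was Pdk4, beside 5% of all genes and 3.38% of the brighter part. Decr2 was also the only member without overlap between genotypes on high-fat diet, lower by 0.14 in heterozygotes (limma adjusted p = 0.9996). There 1.57% of all genes had no overlap in that direction and 2.18% in the other, and 2.02% and 2.31% of the brighter part.

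Acaa1a, a peroxisomal thiolase, was not called in any comparison. It was 10.69, 10.56, 10.66 and 10.68 in WT control, 10.60, 10.77, 10.80 and 10.50 in WT HFD, 10.77, 10.87, 10.45 and 10.29 in Het control, and 10.51, 10.44, 10.54 and 10.56 in Het HFD. All 4 groups overlapped, Het control held both the highest value (animal 2) and the lowest (animal 4), and the diet difference in heterozygotes was -0.09 (SE 0.10, adjusted p = 0.537), or 0.004 without animal 2. Its neighbour in sequence Acaa1b was also highest in that animal, at 11.96, and lowest in Het control animal 4, at 11.06. Ehhadh, the bifunctional enzyme that hydrates and dehydrogenates the chain, was 11.74 in Het control animal 2 and 12.35 to 13.03 in the other 15 animals, with a genotype difference on control diet of -0.41 (SE 0.15, adjusted p = 0.287), or -0.22 without it. The thioesterase Acot3 and Pex11a, which acts in peroxisome division, had genotype differences on control diet of -0.41 and -0.27, neither called, and -0.33 and -0.11 without it.

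In the 4 microsomal genes the low values of Het control animals 2 and 3 were, by median deviation, the largest of the 4 classes. All 4 were lower in value in heterozygotes on control diet (median -0.47, or -0.35 without Het control animal 2 and -0.38 after repeated quantile normalization). All 4 were higher on high-fat diet than on control diet in heterozygotes (median 0.39, or 0.25 without Het control animal 2). In wild type the diet median was -0.02.

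Cyp4a10 and Cyp4a14, omega-hydroxylases of fatty acids and among the genes most induced by Ppara agonists, had their lowest values in the same animals. Cyp4a10 was 13.24, 13.02, 13.15 and 13.16 in WT control, 12.95, 13.21, 13.11 and 13.12 in WT HFD, 13.11, 12.23, 12.44 and 12.85 in Het control, and 13.06, 13.00, 12.95 and 13.02 in Het HFD. Het control animals 2, 3 and 4 lay below every animal of the other groups. The difference between genotypes on control diet was -0.48 (SE 0.13, 1.40-fold lower, adjusted p = 0.279), or -0.34 without Het control animal 2.

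Cyp4a14 was 13.02, 12.94, 13.39 and 13.46 in WT control, 12.99, 13.34, 13.14 and 13.39 in WT HFD, 13.40, 12.51, 12.23 and 12.88 in Het control, and 13.17, 13.23, 13.04 and 13.22 in Het HFD. Here too animals 2, 3 and 4 of Het control lay below all others while animal 1 was among the highest of all. The diet difference in heterozygotes was 0.41 (SE 0.18, adjusted p = 0.147), which was 0.23 without Het control animal 3 and 0.62 without animal 1, and in wild type it was 0.01 (SE 0.18, adjusted p = 0.998).

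Cyp4a31, a neighbouring gene of the same cluster, read 12.47, 12.22, 12.56 and 12.35 in WT control, 11.99, 12.68, 12.38 and 12.33 in WT HFD, 12.46, 11.21, 11.48 and 11.96 in Het control, and 12.27, 12.32, 12.05 and 12.07 in Het HFD. Its lowest 3 values were again Het control animals 2, 3 and 4. The genotype difference on control diet was -0.63 (SE 0.20, 1.54-fold lower, adjusted p = 0.279), or -0.44 without Het control animal 2.

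Aldh3a2, the fatty aldehyde dehydrogenase of the endoplasmic reticulum, was the only member called in 2 comparisons. It read 12.46, 12.31, 12.50 and 12.43 in WT control and 12.58, 12.63, 12.60 and 12.73 in WT HFD. It read 12.45, 11.92, 12.12 and 12.46 in Het control and 12.58, 12.61, 12.63 and 12.67 in Het HFD. Within each genotype every animal on high-fat diet exceeded every animal on control diet.

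In the heterozygotes the mean went from 12.24 ± 0.26 (SD, n = 4) to 12.62 ± 0.04 (SD, n = 4), a rise of 0.39 (SE 0.10, 1.31-fold, limma adjusted p = 0.0485). Over both genotypes the rise was 0.30 (SE 0.07, adjusted p = 0.0368), and 0.24 without Het control animal 2 (adjusted p = 0.0173). In wild type alone the difference was 0.21 (SE 0.10, adjusted p = 0.762). The call in heterozygotes held only when Het control animal 1 or 4 was the one left out, and otherwise the adjusted p was 0.0524 to 0.127 (0.0719 without Het control animal 2). The pooled call was lost without any 1 of WT control animals 1, 2 and 4, Het control animal 3, the 4 WT HFD animals or the 4 Het HFD animals (adjusted p 0.0514 to 0.082).

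**Figure D5:**
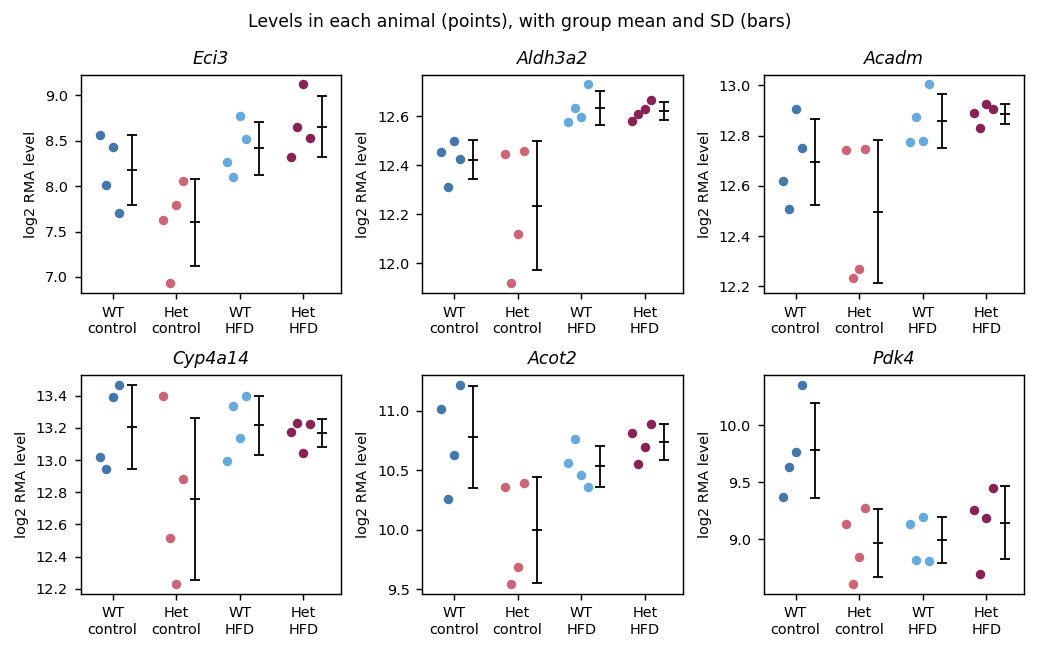
Points are the log2 levels of 6 members in each of the 16 animals by group, with the group mean and SD as bars beside them. Eci3 and Aldh3a2 lie higher in all 4 Het HFD animals than in all 4 Het control animals, Acadm and Acot2 do so too without a call, the low Cyp4a14 values belong to Het control, and Pdk4 is highest in WT control.

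Among the regulators, Ppara itself was lowest in the same 2 animals. It read 12.29, 12.16, 12.43 and 12.27 in WT control, 12.20, 12.35, 12.30 and 12.38 in WT HFD, 12.23, 11.80, 11.92 and 12.26 in Het control, and 12.32, 12.15, 12.27 and 12.34 in Het HFD. Het control animals 2 and 3 lay below the other 14, which read 12.15 to 12.43, and the genotype difference on control diet was -0.23 (SE 0.10, adjusted p = 0.299), or -0.15 without animal 2.

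Ppargc1a, the coactivator that raises mitochondrial gene expression, did not follow that order. It was 9.68, 10.31, 9.96 and 10.02 in WT control, 10.30, 9.50, 10.02 and 10.10 in WT HFD, 9.86, 9.24, 9.86 and 9.94 in Het control, and 9.98, 10.01, 9.81 and 9.99 in Het HFD. Het control animal 3 was within the range of the other groups, only animal 2 lay apart, and no difference between 2 groups exceeded 0.26 in size, which was genotype on control diet (-0.26, or -0.10 without animal 2). A second probe set of the gene gave 0.44 (SE 0.30) for the diet in heterozygotes, where the first gave 0.22 (SE 0.17), or 0.06 without Het control animal 2.

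Pdk4, the kinase that shuts off pyruvate dehydrogenase so that fatty acids are burned in place of glucose, had the smallest unadjusted p of the members in 3 comparisons. It read 9.37, 9.63, 9.77 and 10.36 in WT control and 9.13, 8.82, 9.19 and 8.81 in WT HFD. It read 9.13, 8.61, 8.84 and 9.27 in Het control and 9.25, 8.69, 9.19 and 9.45 in Het HFD. The WT control animals lay above every WT HFD animal and above every Het control animal.

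The diet difference of Pdk4 in wild type was -0.79 (SE 0.20, 1.73-fold lower, unadjusted p = 0.000819, limma adjusted p = 0.326), and in heterozygotes it was 0.18 (SE 0.20, adjusted p = 0.495), or 0.06 without Het control animal 2 and 0.33 without Het HFD animal 2. The genotype difference on control diet was -0.82 (SE 0.20, 1.76-fold lower, adjusted p = 0.279), and the interaction was 0.97 (SE 0.28, adjusted p = 0.38). Pdk4 was the only member without overlap between genotypes on control diet. There 2.1% of all genes had no overlap in that direction and 4.03% in the other, and 3.32% and 2.49% of the brighter part. Here the group that stood apart was WT control, unlike the members described above.

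Fgf21, the fasting hormone made by liver under Ppara, read 7.86, 7.74, 7.85 and 8.08 in WT control, 7.72, 8.21, 7.77 and 7.58 in WT HFD, 8.12, 8.15, 7.80 and 7.97 in Het control, and 7.83, 7.61, 7.85 and 7.81 in Het HFD. All groups overlapped, its level was in the dimmer part of the array, and the diet difference in heterozygotes was -0.24 (SE 0.12, adjusted p = 0.171). Vnn1, the pantetheinase and a sensitive Ppara target, was 12.18, 10.79, 11.34 and 12.06 in Het control and 12.27 to 12.49 in Het HFD, a difference of 0.80 (SE 0.23, adjusted p = 0.0661), or 0.54 without Het control animal 2. Acot1, the cytosolic thioesterase, ranged from 7.25 to 9.33 with an SD of 0.64 in WT control, and its genotype difference on control diet was -0.72 (SE 0.31, adjusted p = 0.302).

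Other genes of the same routes were tested in the same model. Over all genes 1.5% were called higher and 0.712% lower on high-fat diet in heterozygotes, and 1.35% and 0.512% over both genotypes. In the brighter part of all genes 6434 of 9969 were higher in value in heterozygotes, and 5754 without Het control animal 2. Of 20 further genes of peroxisomal oxidation 19 were higher in value on high-fat diet in heterozygotes (median 0.13, and 17 with a median of 0.07 without Het control animal 2), none called, and over both genotypes 1 rose, the trans-2-enoyl-CoA reductase Pecr (0.22, SE 0.06, limma adjusted p = 0.0493). Of 13 further genes of mitochondrial oxidation and ketone synthesis 12 were higher in value in heterozygotes (median 0.31; without that animal 11, median 0.185), and 2 acyl-CoA dehydrogenase family members rose. These were Acad9 (0.34, adjusted p = 0.0352) and Acad12 (0.41, adjusted p = 0.0429, or 0.0624 without Het control animal 2), and both also rose over the 2 genotypes pooled.

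Further Ppara targets outside the oxidation routes lay on both sides of 0. Of 21, 1 rose and 3 fell on high-fat diet in heterozygotes (beside 1.5% and 0.712% of all genes), with a median of -0.07. Cd36, which takes up fatty acids, rose by 1.44 (SE 0.26, adjusted p = 0.0185), while the lipid-droplet proteins Plin4 and Plin5 fell by 0.40 and 0.52 (adjusted p = 0.0152 and 0.0165) and the lipase inhibitor Angptl4 by 0.53 (adjusted p = 0.0494, or 0.0854 without Het control animal 2). Over both genotypes Cd36 rose, and Plin4 and Plin5 fell. Of 18 further regulators Pparg rose by 0.60 (adjusted p = 0.0257) and the phosphatidate phosphatase Lpin1 fell by 1.17 (adjusted p = 0.0167) in heterozygotes, and over both genotypes only Lpin1 was called (fell by 0.66, adjusted p = 0.0341).

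None of these 72 related genes was called in the other 5 comparisons. The 2 with the smallest p were Plin4 (-0.29) and Acad12 (0.31) for diet in wild type, Plin4 (0.22) and Plin5 (0.30) for genotype on control diet, and Txnip (-0.48) and Lpin1 (-0.60) for genotype on high-fat diet. They were Plin4 (0.17) and Txnip (-0.37) for genotype over both diets and Pparg (0.58) and Lpin1 (-1.02) for the interaction, with limma adjusted p of 0.279 to 0.9996 throughout.

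Markers of other liver cells differed in both directions. On high-fat diet in heterozygotes all 4 bile duct markers were lower in value (median -0.21), none called. Of 6 stellate markers 4 were higher and 2 lower, with 1 called higher. Of 4 lymphocyte markers 3 were higher and 1 lower, none called, and in wild type all 4 were lower on the diet (median -0.29), none called. Of 10 Kupffer cell and macrophage markers 6 were called higher on high-fat diet in heterozygotes (median 0.55), beside 1.5% of all genes. Without Het control animal 2 there were 3, beside 0.582% of all genes. The mean level of these markers ran from 9.90 to 10.37 in Het control and from 10.44 to 10.82 in Het HFD. The 7 endothelial markers were all lower in value in heterozygotes on control diet (median -0.34, or -0.20 without Het control animal 2), none called. In Het control animals 1 to 4 the median deviation was -0.28, -0.51, -0.03 and -0.28 for the macrophage markers and -0.25, -0.47, 0.10 and 0.01 for the endothelial markers, so animal 3, low in every member, was not low in either list. Adipocyte, skeletal muscle and pancreas markers had mean levels of 7.37 to 7.74, 7.85 to 8.19 and 7.64 to 8.19, below the all-gene median of 8.31, with the highest of each in Het control animal 2. The median deviations of these lists in that animal were 0.335, 0.277 and 0.361, and that of the whole dimmer part of all genes was 0.32. The part of these lists in the members' differences was not tested.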

How the data were processed

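The deposited values are log2 levels per probe set. Per the submitters' processing notes, the authors made them with Affymetrix Expression Console and RMA; versions and annotation build were not given in the sources used here. That method is meant to equalise the arrays' distributions. Over the 19938 genes the interquartile range was still 1.95 in Het control animal 2 and 2.40 to 2.60 in the others. Levels are relative within this set of arrays, and no level was compared between probe sets. Of 35556 probe sets, 21789 carried 1 gene symbol in the platform annotation, 1621 several and 12146 none; the brightest probe set per symbol gave 19938 genes.

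A model of 4 group means over all 16 arrays was fitted with limma 3.58.1 in R 4.3.3 (lmFit, eBayes), with 7 contrasts: diet in wild type and in heterozygotes, genotype on either diet, both factors pooled, and the interaction. Differences are high-fat minus control and heterozygote minus wild type. The function was tested on simulated data first. The members and lists were chosen with earlier results of these data known. All 16 values are printed for members called in any contrast, for the 3 with the smallest p in each contrast, and for Ppara, Ppargc1a, Cpt1a, Pdk4, Fgf21 and Cyp4a14. Of the related genes, those called are named, otherwise the 2 with the smallest p. Pairs used 100000 permutations. Alternatives were leaving out each array, fitting 2 groups, other variance moderation, array weights, repeated quantile normalization, a filter on dim genes, other probe set rules, and the title number as a random block (duplicateCorrelation, statmod 1.5.0). The number of arrays limits the precision.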

Additional observations from a re-analysis of the deposited data

Results flagged for a closer look

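Of 64 groups of 4 values examined for the members described by animal, 3 (4.69%) held 1 animal far from the other 3, and chance gives about 1 in 20 such groups. Decr2 read 12.92 in WT control animal 3, where the other 3 read 12.82 to 12.84. Ppargc1a read 9.24 in Het control animal 2, where the others read 9.86 to 9.94, and 9.81 in Het HFD animal 3, where the others read 9.98 to 10.01. The low Ppargc1a value lies in the array that stood apart over all genes.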

How the results depend on the processing

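With single arrays left out, the number of members called for diet in heterozygotes ranged from 0 to 8 (2 with all arrays) and for diet over both genotypes from 0 to 5 (1 with all arrays). The count in heterozygotes was 0 without WT control 2, Het control 2 or 3, or Het HFD 2, 3 or 4. In those fits 0.226% to 0.873% of all genes were called. The count was 8 without Het control 4, where 17.3% of all genes were called: Slc25a20, Acadm, Hadh, Acot2, Eci3, Aldh3a2, Ppara and Vnn1. Calls over all genes ranged from 45 to 3446 in heterozygotes and from 104 to 1754 over both genotypes. For diet in heterozygotes, fitting only the 2 groups gave 0 members, where 0.0351% of all genes were called. Repeated quantile normalization gave 1 (Eci3), where 1.86% of all genes were called. The title number as a random block gave 16, where 34.8% of all genes were called. For diet over both genotypes, array weights gave 5 members (10.6% of all genes), leaving out the dimmest 30% of genes 2 (3.15%), and the random block 7 (18.6%). The within-block correlation was -0.372, below 0, so blocked counts are not read as gains. The block with Het control 2 left out, chosen after seeing the data, gave 1 and 2 members (1.56% and 5.21% of all genes) at a correlation of -0.178. Repeated quantile normalization also moved the split of all genes called in heterozygotes from 300 higher and 142 lower to 204 higher and 167 lower. The fits that leave arrays out also have fewer arrays, and the cause of these changes was not tested. In the other 5 comparisons the count of members called was 0 under all alternatives run, and no called member changed sign. No paired analysis was possible because the replicate numbers follow the order of deposit and pair no animals.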
